A study of Mus musculus with 8 samples.

Results

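The genes that write and read methylation of histone H3 at lysine 9 (H3K9) were followed in pachytene spermatocytes of *Arid1a* WT and *Arid1a* cKO mice. ARID1A is a subunit of the BAF chromatin remodeler. The 10 genes were taken by name as H3K9 methyltransferases, their cofactors and the HP1 proteins. They are *Setdb1*, *Atf7ip*, *Atf7ip2*, *Trim28*, *Ehmt1*, *Ehmt2*, *Suv39h2*, *Cbx1*, *Cbx3* and *Cbx5*. All 10 were found among the 21058 genes of the deposited tables, and all 10 were among the 17643 genes with enough counts to be tested. None lies on the X or Y chromosome.

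Messenger RNA was sequenced from 4 *Arid1a* WT and 4 *Arid1a* cKO samples of mouse pachytene spermatocytes purified by Sta-Put sedimentation at unit gravity. *Arid1a* cKO stands for *Arid1a* fl/fl; *Stra8-Cre* Tg/0 males, in which Cre is made in spermatogonia, so that later germ cells inherit the excision and the somatic cells of the testis keep *Arid1a*. *Arid1a* WT stands for males of the same crosses that were *Arid1a* fl/fl or fl/+, with no Cre transgene given, so both groups carry floxed alleles. The floxed line is on a CD1 background. Each purification pooled testes of at least 12 males older than 60 days, and the pooled fractions held more than 80% pachytene spermatocytes by light microscopy. Excision was incomplete in some spermatocytes of these males, so the *Arid1a* cKO samples can hold cells that kept ARID1A. 

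H3K9 methylation marks silent chromatin. SETDB1 places trimethylation, helped by its cofactors ATF7IP and ATF7IP2, and is brought to target DNA through TRIM28, the corepressor of KRAB zinc finger proteins. EHMT1 (GLP) and EHMT2 (G9a) work as a heterodimer that places mono- and dimethylation, and SUV39H1 and SUV39H2 trimethylate pericentric heterochromatin. CBX5, CBX1 and CBX3, known as HP1 alpha, beta and gamma, bind methylated H3K9 through a chromodomain. In pachytene spermatocytes several of these proteins gather on the silenced X and Y chromosomes, and SETDB1 and ATF7IP2 are known to act in meiotic silencing of that pair.

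Libraries held 15850961 to 22044507 estimated counts. Values are given as CPM (counts relative to library size, adjusted by the trimmed mean of M values, TMM) or as TPM (transcript abundance relative to all transcripts of the library). TPM divides by transcript length and alone allows one gene to be set against another. *Arid1a* itself had 113 ± 13.8 CPM in *Arid1a* WT and 79.7 ± 2.89 CPM in *Arid1a* cKO (SD, n = 4), a log2 fold change of -0.51 (SE 0.07, adjusted p = 2.31e-05 by the quasi-likelihood test of edgeR, adjusted by Benjamini-Hochberg). The gene-level count includes exons outside the excised part, so it does not measure excision. Marker RNAs of other cells moved with genotype, as did most genes. Of all genes tested, 74.0% passed at an adjusted p of 0.05 or less (edgeR), 36.5% higher and 37.5% lower. The median log2 fold change of all genes was -0.02, and the marker counts below are to be read beside these shares. All 16 spermatid markers were higher in *Arid1a* cKO, with summed levels of 2505 to 2758 CPM in *Arid1a* WT and 11600 to 11889 CPM in *Arid1a* cKO. Of 11 pachytene markers, all detected in every library, 9 were lower and 2 were higher (9371 to 10587 CPM against 6705 to 7221 CPM), from *Piwil1* at -3.88 to *Pgk2* at 1.504 log2 units. All 6 Sertoli cell markers were lower (148 to 168 CPM against 57.9 to 62.6 CPM), while of 7 Leydig and peritubular cell markers 5 were lower and 2 higher (63.1 to 67.6 CPM against 19.4 to 21.96 CPM). Of 7 macrophage and blood markers, 5 were higher and 1 lower (5.12 to 6.19 CPM against 11.4 to 14.0 CPM). Of 12 spermatogonial markers, 10 were higher and 1 lower, with a median log2 fold change of 0.44, while their sums overlapped (214 to 218 CPM against 206 to 219 CPM), *Id4* having fallen from 90.3 to 14.4 CPM. Of 8 leptotene and zygotene markers, 5 were higher and 3 lower, with a median of 0.81, while their sum fell from 195 to 227 CPM to 112 to 126 CPM with *Spo11*, which went from 134 to 20.98 CPM. No marker was at 0 in all libraries. The part of these shifts in the results that follow was not tested. In bulk samples, fewer cells of a type and less RNA per cell cannot be told apart.

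All 10 genes passed the test at an adjusted p of 0.05 or less, with 4 higher and 6 lower in *Arid1a* cKO. Over all genes tested, 74.0% passed, 36.5% higher and 37.5% lower, so passing does not set these genes apart. Of all genes called, 49.3% were higher, and 38.9% were higher on rescaled TPM, an alternative described with *Ehmt2*. The median log2 fold change over all genes was -0.02. In CPM, every *Arid1a* cKO library lay on the same side of every *Arid1a* WT library at all 10 genes, as it did at 68.9% of all genes, 34.0% with *Arid1a* cKO above and 34.9% with it below. *Suv39h2*, *Ehmt1*, *Cbx3* and *Ehmt2* were higher. *Cbx5*, *Cbx1*, *Setdb1*, *Trim28*, *Atf7ip* and *Atf7ip2* were lower. The calls at *Atf7ip* and *Ehmt2* did not hold on log2(TPM + 1), as their values below show.

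**Figure D1:**
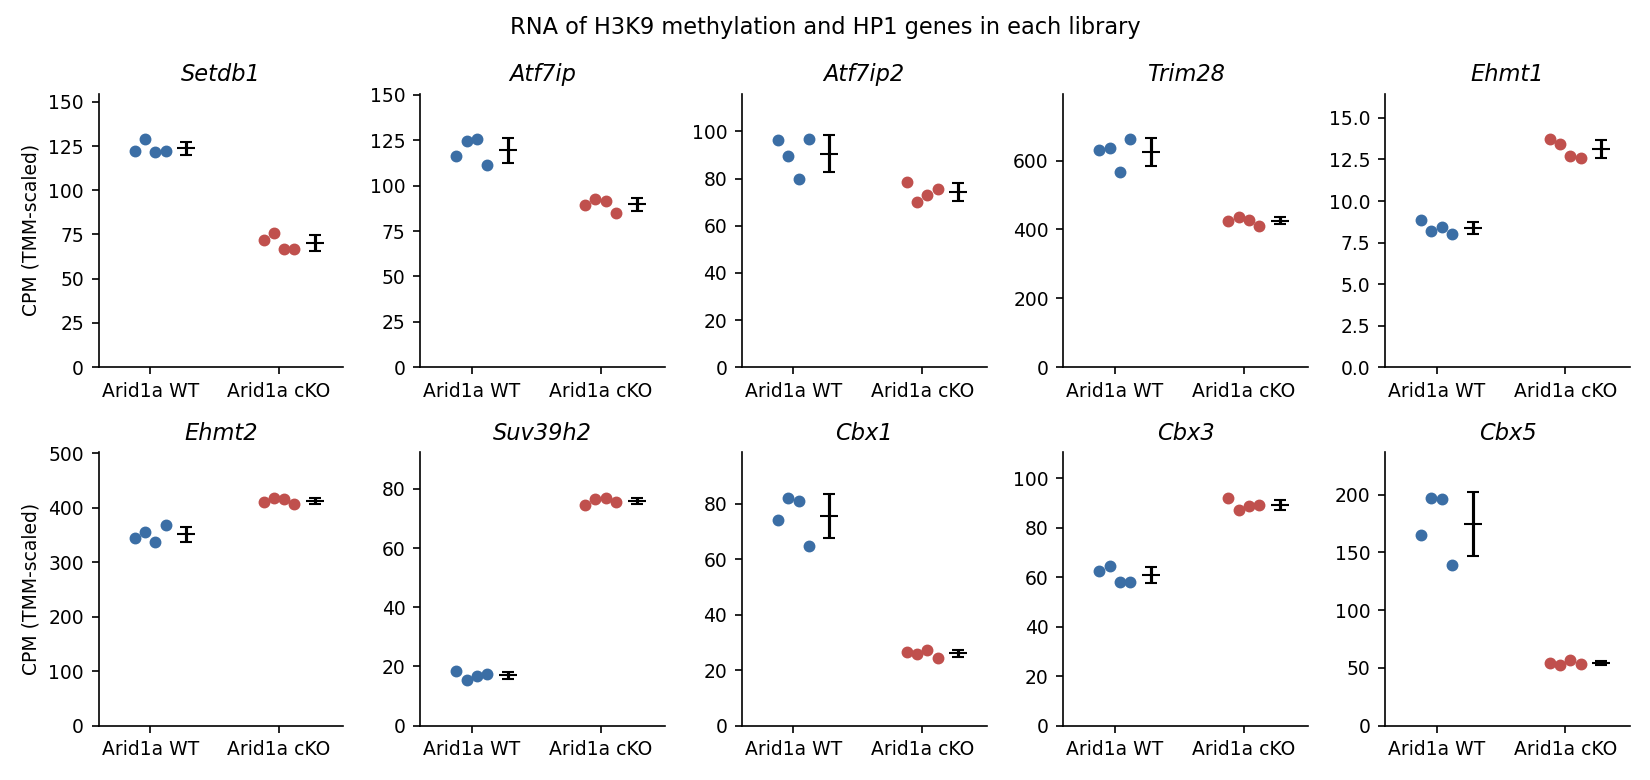
Each panel plots 1 gene, with CPM (TMM-scaled) on a vertical axis that starts at 0 and the genotypes on the horizontal axis. Points are the 4 libraries of each genotype and the bar beside them is the mean ± SD. The genotypes do not overlap in any panel, and the widest gaps relative to level are at *Suv39h2*, *Cbx5* and *Cbx1*.

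Promoters are shown for the gene with the largest rise (*Suv39h2*) and for *Setdb1*, whose RNA fell. They are also shown for both annotated starts of *Cbx5*, whose estimated transcript length differed between genotypes. The letters before each start can thus be read beside the values. The sequences come from RefSeq promoter windows on GRCm38.p6, are printed 5′ to 3′ on the strand of the gene, and are trimmed to the bases before the first annotated transcript base near each start. Capitals mark a match, on either strand, to any of 6 motifs. They are the GC box read as GGGCGG, the CCAAT box by that name, the core of the A-MYB motif read as GGCAGTT, the cyclic AMP response element read as TGACGTCA, the NRF1 motif, and the E-box read as CACGTG.
*Suv39h2*, chr2:3475032-3475236, minus strand: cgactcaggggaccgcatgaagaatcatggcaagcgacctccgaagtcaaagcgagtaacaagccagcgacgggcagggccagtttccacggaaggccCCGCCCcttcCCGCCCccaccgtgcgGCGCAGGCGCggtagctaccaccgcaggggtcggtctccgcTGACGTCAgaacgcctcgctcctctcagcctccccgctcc
*Setdb1*, chr3:95357203-95357452, minus strand: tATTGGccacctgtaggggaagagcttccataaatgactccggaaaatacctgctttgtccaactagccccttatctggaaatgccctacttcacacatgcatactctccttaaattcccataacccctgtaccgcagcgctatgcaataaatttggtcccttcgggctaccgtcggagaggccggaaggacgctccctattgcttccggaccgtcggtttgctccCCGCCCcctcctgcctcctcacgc
*Cbx5*, distal start, chr15:103239905-103240102, minus strand: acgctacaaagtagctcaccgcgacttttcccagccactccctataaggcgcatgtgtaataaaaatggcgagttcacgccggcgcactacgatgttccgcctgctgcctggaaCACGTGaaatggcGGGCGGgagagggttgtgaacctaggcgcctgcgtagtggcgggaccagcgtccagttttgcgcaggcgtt
*Cbx5*, proximal start, chr15:103215367-103215602, minus strand: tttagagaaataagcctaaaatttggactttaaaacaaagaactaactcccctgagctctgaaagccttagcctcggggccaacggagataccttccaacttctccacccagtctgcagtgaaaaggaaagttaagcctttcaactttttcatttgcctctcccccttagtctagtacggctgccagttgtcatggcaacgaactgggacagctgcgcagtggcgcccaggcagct

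Across the 13 RefSeq promoter windows of the 10 genes, taken as the 250 bases before each start, GGGCGG was found in 12, against 32.7% of all 32851 windows. CCAAT was found in 4 of the 13 windows (*Setdb1*, *Atf7ip*, *Atf7ip2* and *Cbx5*), against 33.8% of all. The NRF1 motif was found in 3 (*Suv39h2*, *Ehmt1* and *Cbx5*), against 3.74% of all, and CACGTG in 3 (1 of *Cbx5* and both of *Ehmt2*), against 6.02%. TGACGTCA was found only in the *Suv39h2* window, against 1.55% of all. GGCAGTT was found in none of the 13, against 3.33%. None of the 6 motifs contains another. The GC content of the 13 windows ran from 49.6% (*Cbx1*) to 84.0% (*Ehmt2*), where the median of all windows was 52.4%. The counts were not set against windows of like GC content. The windows reach up to bases that were trimmed from the sequences above, so some matches, such as those of *Cbx5* to CCAAT and the NRF1 motif, are not among the printed letters.

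*Setdb1* (chromosome 3, 95323525 to 95357202, GRCm38.p6) had 122, 129, 121 and 122 CPM in *Arid1a* WT replicates 1 to 4, and 71.9, 76.1, 66.6 and 67.0 CPM in *Arid1a* cKO replicates 1 to 4. The lowest *Arid1a* WT library was well above the highest *Arid1a* cKO library. The mean fell 1.76-fold, with a log2 fold change of -0.81 (SE 0.05, adjusted p = 3.17e-09, edgeR). In TPM it fell from 40.0 ± 2.30 to 21.1 ± 1.19 (SD, n = 4). Of its 31-base words, 12.9% also occur in other transcripts, mostly those of *Gm4349*, *Gm37500* and the adjoining gene *Cers2*. Part of the *Setdb1* count could have been split among them. *Gm4349* was at 1.64 ± 0.569 CPM in *Arid1a* WT and 0.544 ± 0.116 CPM in *Arid1a* cKO (SD, n = 4), far below *Setdb1*. Its log2 fold change was -1.59 (SE 0.29). *Gm37500* is not among the listed genes. *Cers2*, which encodes a ceramide synthase, was lower as well (log2 fold change -0.78, SE 0.08), at a level of 13.2 ± 0.413 CPM against 7.65 ± 0.698 CPM (SD, n = 4).

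*Trim28* (chromosome 7, 13024152 to 13031032) was the most abundant of the 10 genes in TPM, with 468, 489, 459 and 492 TPM in *Arid1a* WT and 289, 316, 306 and 285 TPM in *Arid1a* cKO. Its CPM fell from 624 ± 40.0 to 425 ± 10.1 (SD, n = 4), a log2 fold change of -0.56 (SE 0.05, adjusted p = 3.01e-07, edgeR).

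The SETDB1 cofactors differed less. *Atf7ip2* (chromosome 16, 10192649 to 10250731) had 96.3, 89.4, 79.9 and 96.7 CPM in *Arid1a* WT and 78.4, 69.9, 73.1 and 75.8 CPM in *Arid1a* cKO. *Arid1a* WT replicate 3 lay just above the highest *Arid1a* cKO library. The log2 fold change was -0.29 (SE 0.06, adjusted p = 0.00101, edgeR), or -0.55 on rescaled TPM (limma), the scale described with *Ehmt2* below, and in TPM the level went from 136 ± 10.6 to 103 ± 7.73 (SD, n = 4).

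*Atf7ip* (chromosome 6, 136518789 to 136610850) had 116, 125, 126 and 111 CPM in *Arid1a* WT and 89.6, 92.8, 91.5 and 85.0 CPM in *Arid1a* cKO, a log2 fold change of -0.41 (SE 0.05, adjusted p = 5.69e-06, edgeR). In TPM its libraries overlapped, with 35.4, 36.5, 37.2 and 32.2 against 31.5, 40.0, 32.4 and 26.4. With offsets for transcript length the log2 fold change was -0.022 (adjusted p = 0.853, edgeR), so the call on counts was lost there. *Atf7ip2* RNA was 3.84 times as abundant as *Atf7ip* RNA by TPM in *Arid1a* WT and 3.19 times in *Arid1a* cKO. The genotypes differed by -0.27 in that log2 ratio, which did not pass the test (two-sided exact permutation test, p = 0.257, n = 4 against 4). It lay between -0.39 and -0.11 with each library left out and was 0.13 on CPM.

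*Ehmt1* and *Ehmt2*, whose products form a heterodimer, were present at very unequal RNA levels. *Ehmt2* (chromosome 17, 34898463 to 34914073) had 168, 186, 183 and 173 TPM in *Arid1a* WT and 178, 185, 182 and 176 TPM in *Arid1a* cKO. These values overlapped fully. Its CPM was 352 ± 13.6 in *Arid1a* WT and 413 ± 5.44 in *Arid1a* cKO (SD, n = 4), a log2 fold change of 0.23 (SE 0.05, adjusted p = 0.000366, edgeR), and 0.024 on the log2(TPM + 1) scale (adjusted p = 0.628, limma). After TPM was rescaled so that the listed genes of each library had the same sum, the difference turned to -0.13 (adjusted p = 0.019, limma), so the direction at *Ehmt2* depends on the scale.

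*Ehmt1* (chromosome 2, 24790769 to 24919643) was the least abundant of the 10 genes in both genotypes. It had 2.97, 3.14, 2.95 and 2.55 TPM in *Arid1a* WT and 5.39, 5.46, 4.41 and 4.82 TPM in *Arid1a* cKO, without overlap. The log2 fold change of its counts was 0.65 (SE 0.07, adjusted p = 1.64e-06, edgeR). *Ehmt2* RNA was 61.0 times as abundant as *Ehmt1* RNA by TPM in *Arid1a* WT and 36.0 times in *Arid1a* cKO, and the log2 ratio of *Ehmt1* to *Ehmt2* rose by 0.76 (p = 0.0286 by a two-sided exact permutation test, for which this is the smallest p of 4 against 4, and 0.0343 adjusted over the 6 ratios compared). On CPM the same ratio rose by 0.41 (exact permutation test, adjusted p = 0.0429).

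*Suv39h2* (chromosome 2, 3455815 to 3474986), which encodes the SUV39H methyltransferase known for its expression in testis, showed the largest rise of the 10 genes. It had 18.4, 15.5, 16.8 and 17.3 CPM in *Arid1a* WT and 74.6, 76.6, 77.0 and 75.7 CPM in *Arid1a* cKO. The 4 libraries of each genotype lay close together and the means differed 4.47-fold, with a log2 fold change of 2.16 (SE 0.06, adjusted p = 1.51e-13, edgeR). In TPM it rose from 9.32 ± 0.432 to 37.2 ± 0.685 (SD, n = 4). Of its 31-base words, 6.85% are shared, mostly with *Dclre1c* on the other strand, which encodes the Artemis nuclease. *Dclre1c* was at 12.3 ± 2.58 CPM in *Arid1a* WT and 6.59 ± 0.688 CPM in *Arid1a* cKO (SD, n = 4), the opposite direction. The fold change of *Suv39h2* lay within the range of the 16 spermatid markers, 1.79 to 2.36, as did those of 7.08% of all genes tested. None of the other 9 genes had a fold change in that range.

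Its paralog *Suv39h1*, which is X-linked, rose as well, with 3.68, 3.80, 4.44 and 4.11 TPM in *Arid1a* WT and 10.8, 12.01, 9.40 and 11.5 TPM in *Arid1a* cKO, without overlap. The counts differed by a log2 fold change of 1.59 (SE 0.09, adjusted p = 8.87e-10, edgeR). *Suv39h2* RNA exceeded *Suv39h1* RNA 2.33-fold in *Arid1a* WT and 3.41-fold in *Arid1a* cKO by TPM. The log2 ratio of *Suv39h1* to *Suv39h2* fell by 0.55 (two-sided exact permutation test, p = 0.0286, adjusted p = 0.0343).

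Of the HP1 genes, *Cbx1* and *Cbx5* fell and *Cbx3* rose. *Cbx1* (chromosome 11, 96788680 to 96808982) had 59.3, 68.1, 68.9 and 54.9 TPM in *Arid1a* WT and 20.3, 20.4, 21.6 and 19.3 TPM in *Arid1a* cKO. Its CPM fell 2.90-fold, from 75.6 ± 8.05 to 26.1 ± 1.36 (SD, n = 4), with a log2 fold change of -1.53 (SE 0.08, adjusted p = 1.52e-10, edgeR). *Cbx3* (chromosome 6, 51470154 to 51483704) rose instead, from 60.5, 64.7, 59.6 and 53.8 TPM to 80.03, 79.2, 78.4 and 81.4 TPM. Its log2 fold change on counts was 0.55 (SE 0.05, adjusted p = 1.27e-07, edgeR), and 0.27 on rescaled TPM (adjusted p = 0.00184, limma). Of its 31-base words, 10.04% are shared, mostly with the transcript *Gm49164* and *Cbx3* pseudogenes.

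*Cbx1* and *Cbx3* RNA were at nearly equal levels in *Arid1a* WT, where the ratio of *Cbx1* to *Cbx3* was 1.05. In *Arid1a* cKO that ratio was 0.255, and the log2 ratio differed by -2.04 between genotypes (two-sided exact permutation test, p = 0.0286, adjusted p = 0.0343). The 3 genes summed to 162 ± 15.2 TPM in *Arid1a* WT and 124 ± 2.38 TPM in *Arid1a* cKO (SD, n = 4). The share of *Cbx3* in that sum went from 36.8% ± 1.57 to 64.4% ± 2.02, that of *Cbx1* from 38.7% ± 1.06 to 16.4% ± 0.547, and that of *Cbx5* from 24.5% ± 0.699 to 19.2% ± 1.60.

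**Figure D2:**
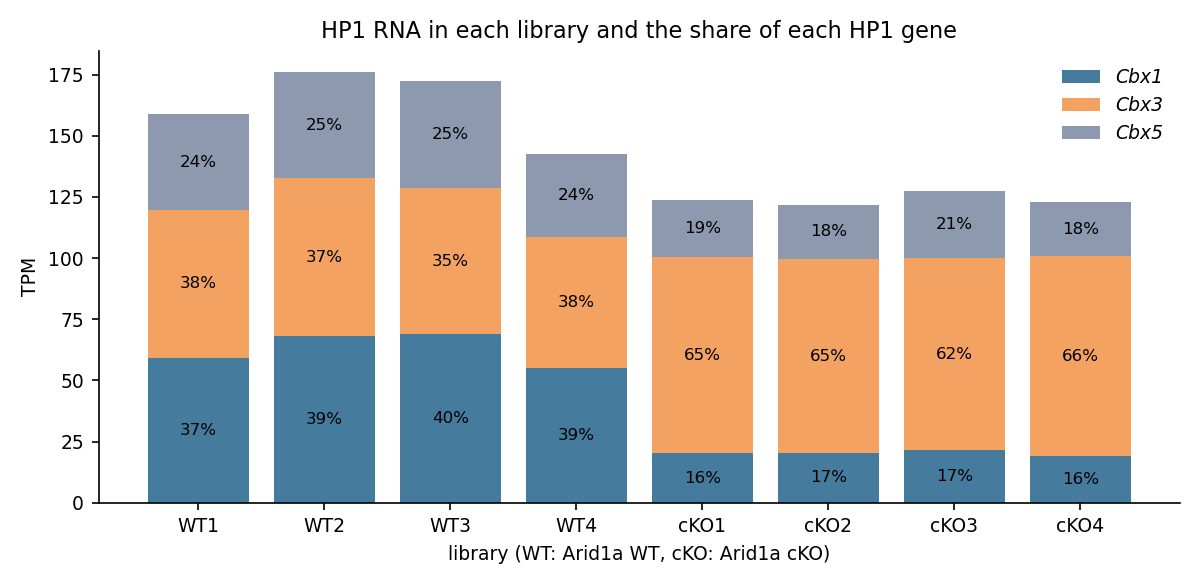
Stacked bars give TPM (vertical axis, from 0) of the 3 HP1 genes in each of the 8 libraries (horizontal axis), and the percentage in each block is the share of that gene in the sum. *Cbx3* takes 34.6% to 38.1% of HP1 RNA in the *Arid1a* WT libraries and 61.5% to 66.3% in the *Arid1a* cKO libraries.

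*Cbx5* (chromosome 15, 103191546 to 103239904) showed the largest fall on counts and a smaller one per transcript. It had 165, 197, 196 and 139 CPM in *Arid1a* WT and 53.9, 52.6, 56.6 and 53.7 CPM in *Arid1a* cKO. The *Arid1a* WT libraries were spread widely but all stood above every *Arid1a* cKO library. The means differed 3.22-fold, with a log2 fold change of -1.68 (SE 0.10, adjusted p = 6.54e-10, edgeR). In TPM it had 38.9, 43.1, 43.7 and 33.7 in *Arid1a* WT and 23.3, 22.3, 27.4 and 22.1 in *Arid1a* cKO, a 1.68-fold fall of the mean. With offsets for transcript length the log2 fold change was -0.65 (edgeR), and on log2(TPM + 1) it was -0.72 (limma).

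The gap between CPM and TPM means that the *Cbx5* counts of the 2 genotypes came from transcripts of unequal estimated length. The effective length of a gene's transcripts was recovered from its count and TPM and put on a scale set by 506 genes with a single annotated transcript. For *Cbx5* it was 6.20, 7.08, 7.05 and 6.08 kb in *Arid1a* WT and 3.13, 3.26, 2.86 and 3.34 kb in *Arid1a* cKO. No library of one genotype came near the other. With each library centred on its median gene, the log2 difference was -1.004 (SE 0.07, adjusted p = 0.000119, limma over 15183 genes), against a median of 0.06 over all genes, and it stayed between -1.04 and -0.96 with each library left out. Over all genes, 9.33% passed as shorter in *Arid1a* cKO, and 0.481% were shorter by 0.9 log2 units or more.

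GENCODE M21 lists *Cbx5* transcripts of 8803, 3661, 1146 and 376 bases. The longest starts at the distal promoter printed above, 24.5 kb upstream of the next, and the 3 longest share a coding length of 573 bases. The longest transcript also ends further downstream on the minus strand, at base 103191544 against 103196687 for the next. These transcripts thus differ at both ends, and which end accounts for the estimated length difference was not tested. Salmon assigns reads among such transcripts by estimation, so the length is an estimate of transcript use and not a direct count. Among the other 9 genes, *Atf7ip* was shorter (5.13 ± 0.238 kb against 3.84 ± 0.503 kb, SD, n = 4, log2 difference -0.36, adjusted p = 0.0182, limma). *Ehmt1* was shorter too (4.38 ± 0.252 kb against 3.601 ± 0.275 kb, log2 difference -0.22, adjusted p = 0.0257, limma), a call that was lost without *Arid1a* WT replicate 1, 3 or 4 or without *Arid1a* cKO replicate 1, 2 or 4, each left out alone, with an adjusted p of up to 0.0664. These tests centre each library on its median gene, and 49.7% of all genes passed them (40.3% as longer and 9.33% as shorter). On the kb scale itself, an alternative chosen after seeing the data, the median of all genes moved from 0.06 to -0.0050, 2.79% of all genes passed as longer and 11.6% as shorter. *Cbx5* (-1.07, adjusted p = 0.000179, limma), *Atf7ip* (-0.42, adjusted p = 0.0313, limma) and *Ehmt1* (-0.28, adjusted p = 0.0312, limma) were shorter on both. *Ehmt2*, *Suv39h2* and *Setdb1* passed as longer only against the median gene (0.13, 0.09 and 0.03 log2 units). On the kb scale their differences were 0.07, 0.024 and -0.030 with adjusted p of 0.163, 0.43 and 0.075 (limma), so no direction is given for them. *Setdb1* had 4.68 ± 0.025 kb in *Arid1a* WT and 4.59 ± 0.051 kb in *Arid1a* cKO (SD, n = 4).

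**Figure D3:**
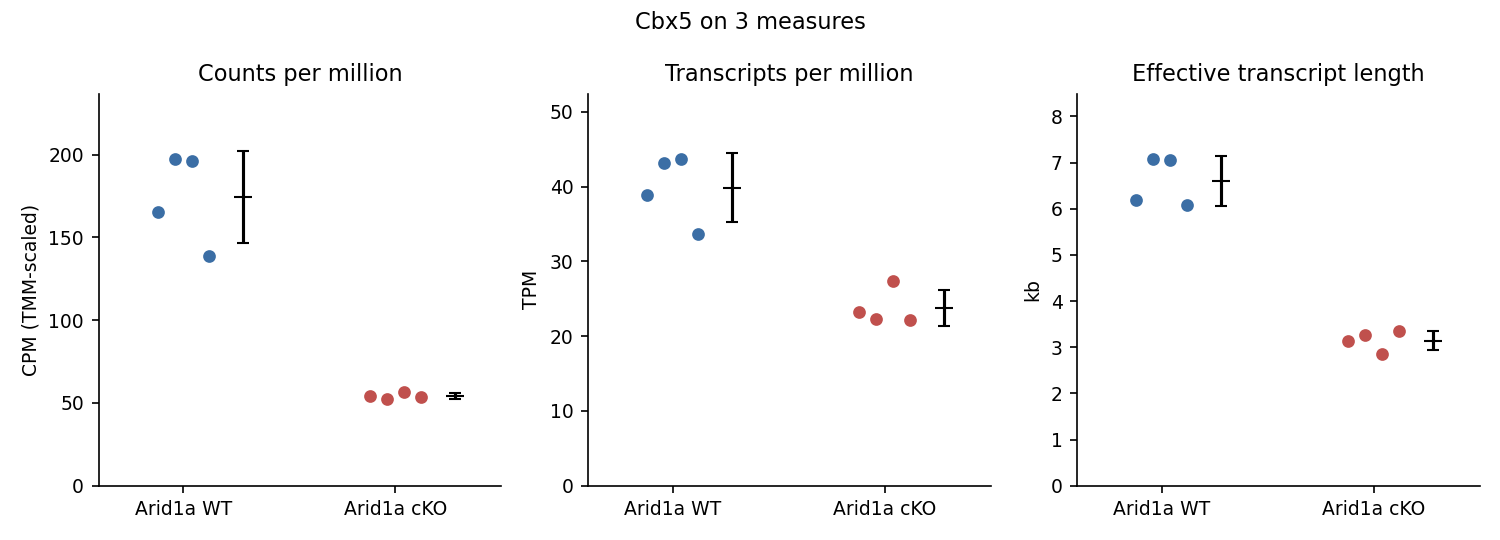
*Cbx5* is plotted as CPM (left), TPM (middle) and effective transcript length in kb (right) for the 4 libraries of each genotype, with the mean ± SD beside the points and axes that start at 0. The genotypes separate on each measure, 3.22-fold in mean CPM and 1.68-fold in mean TPM, and the effective length falls from 6.60 to 3.15 kb.

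Because its estimated transcript length differed, the place of *Cbx5* among the HP1 genes depends on the unit. Per transcript, the ratio of *Cbx5* to *Cbx1* rose from 0.634 to 1.16 (log2 difference 0.87, two-sided exact permutation test, p = 0.0286, adjusted p = 0.0343). On CPM the same log2 ratio differed by -0.14 and did not pass (exact permutation test, p = 0.0571, or 0.0686 adjusted over the 6 ratios on CPM). The log2 ratio of *Cbx5* to *Cbx3* fell by 1.17 in TPM, from a ratio of 0.666 to 0.297 (exact permutation test, p = 0.0286, adjusted p = 0.0343), and by 2.23 on CPM (exact permutation test, adjusted p = 0.0429).

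**Figure D4:**
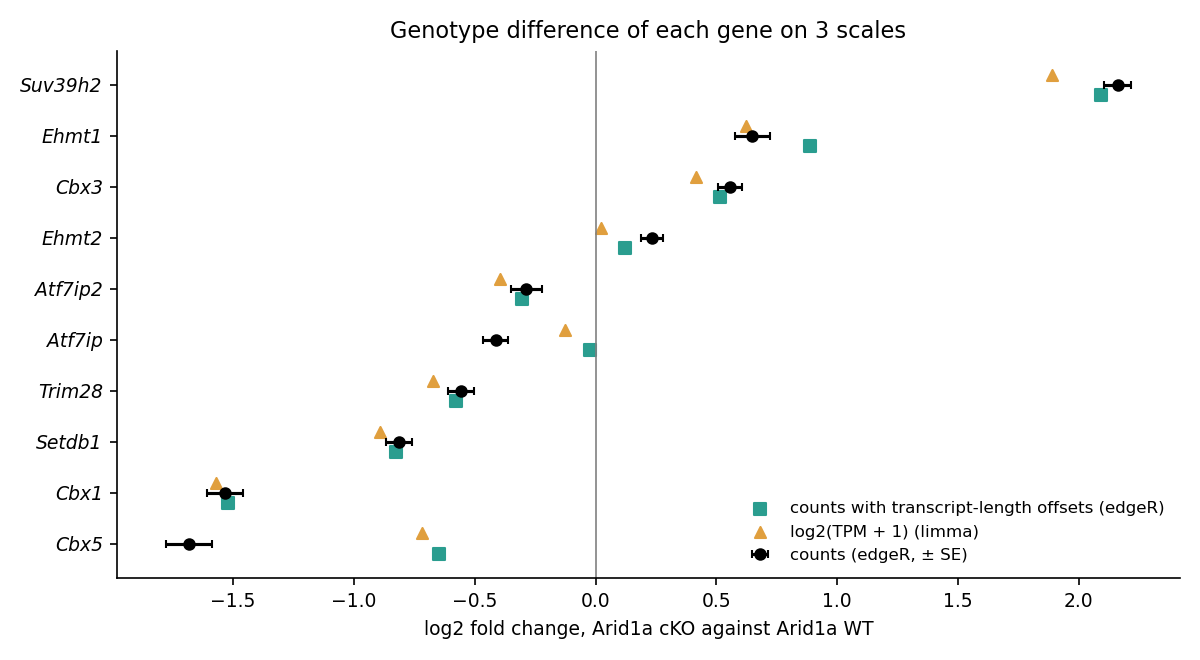
The horizontal axis is the log2 fold change of *Arid1a* cKO against *Arid1a* WT for the 10 genes. Circles are the test on counts (± SE), squares the same test with transcript-length offsets, and triangles log2(TPM + 1). *Cbx5* moves from -1.68 to -0.65 with length offsets, *Atf7ip* from -0.41 to -0.022, and *Suv39h2*, *Cbx1*, *Setdb1* and *Trim28* change little.

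In *Arid1a* WT the order of levels in TPM was *Trim28*, *Ehmt2*, *Atf7ip2*, *Cbx1*, *Cbx3*, *Setdb1*, *Cbx5*, *Atf7ip*, *Suv39h2* and *Ehmt1*. Neighbours overlapped between *Cbx1* and *Cbx3*, *Setdb1* and *Cbx5*, and *Cbx5* and *Atf7ip*. In *Arid1a* cKO the first 3 and the last kept their places. *Cbx3* came next and stood apart, followed by *Suv39h2*, *Atf7ip*, *Cbx5*, *Setdb1* and *Cbx1*, each overlapping the next. *Suv39h2* thus went from below *Setdb1* (9.32 against 40.0 TPM) to above it (37.2 against 21.1 TPM). TPM of the listed genes summed to 780735 to 811443 in *Arid1a* WT and 880901 to 886412 in *Arid1a* cKO, a log2 difference of 0.15, so differences between genotypes on the TPM scale carry that shift, and ratios within a library do not.

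Genes that work with these 10 were taken from 5 lists, 47 genes in all, of which 20 were higher, 17 lower and 10 did not pass, where 74.0% of all genes tested passed, 36.5% higher and 37.5% lower. Of the 5 other H3K9 methyltransferases, 3 were higher and 0 lower (edgeR), with a median log2 fold change of 0.49. No gene of that list was lower at an unadjusted p under 0.05, and DESeq2 also called 0 lower, but limma on log2(TPM + 1) called 1. *Prdm2* did not pass (log2 fold change -0.09, adjusted p = 0.077, edgeR), though every *Arid1a* cKO library lay below every *Arid1a* WT library in CPM. *Mecom* had only 46 counts over all libraries and did not pass. The other methyltransferases that were higher were *Prdm16* and *Setdb2*, a relative of *Setdb1*. *Prdm16* went from 2.27 ± 0.314 to 9.23 ± 0.620 CPM (SD, n = 4, log2 fold change 2.02, SE 0.12, or 0.86 on log2(TPM + 1)). *Setdb2* had a log2 fold change of 0.49 (SE 0.06) and did not pass on log2(TPM + 1) (0.082). Its sign turned to -0.060 on rescaled TPM (not called).

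Of 13 partners of SETDB1 and TRIM28 in the HUSH complex, the TIF1 family and the SUMO pathway, 7 were higher and 5 lower, with a median of 0.17. HUSH spreads H3K9 trimethylation with SETDB1. Its chromodomain subunit gene *Mphosph8* (MPP8) fell from 271 ± 17.2 to 59.4 ± 1.53 CPM (log2 fold change -2.19, SE 0.06), and its scaffold gene *Tasor* fell by 1.29 log2 units (SE 0.09). The HUSH subunit gene *Pphln1* (periphilin) rose from 40.6 ± 1.75 to 160 ± 0.602 CPM (1.98, SE 0.05), and *Tasor2*, the paralog of *Tasor*, rose from 184 ± 2.51 to 767 ± 31.9 CPM (2.06, SE 0.05). *Zfp57*, a KRAB zinc finger gene that acts through TRIM28 at imprinted loci, rose from 15.8 ± 1.23 to 71.3 ± 1.44 CPM (2.18, SE 0.06). HUSH subunits thus moved in both directions.

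Among 4 partners of EHMT1 and EHMT2, 2 were higher and 0 lower (edgeR), with a median of 0.84. No partner was lower at an unadjusted p under 0.05 or by DESeq2, but 1 was called lower without TMM or without *Arid1a* cKO replicate 1, and 2 without *Arid1a* WT replicate 4. *Cdyl*, a chromodomain corepressor, rose from 71.2 ± 2.88 to 288 ± 9.57 CPM (log2 fold change 2.02, SE 0.05), and its paralog *Cdyl2* rose to 16.9 ± 1.52 CPM (1.76, SE 0.11). The zinc finger partners *Wiz* and *Zfp644* had log2 fold changes of -0.08 and -0.14 and did not pass.

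Of 14 HP1 partners, 4 were higher and 6 lower, with a median of 0.0018. On rescaled TPM 1 was higher and 9 lower (limma), and without *Arid1a* WT replicate 3 the number higher was 6 (edgeR). *Lbr*, the lamin B receptor that ties HP1 to the nuclear envelope, fell from 81.0 ± 1.70 to 23.5 ± 0.676 CPM (log2 fold change -1.79, SE 0.05). *Lrif1*, an HP1-binding protein gene, rose from 68.4 ± 5.28 to 268 ± 16.3 CPM (1.97, SE 0.06). *Chaf1b*, a subunit of chromatin assembly factor 1, and *Chd4*, a remodeler that works with HP1 and ADNP, fell by 0.72 (SE 0.09) and 0.61 (SE 0.05) log2 units. Their partners moved the other way on counts. *Chaf1a*, which encodes the large subunit of the same assembly factor, rose by 0.42 (SE 0.06) and *Adnp* by 0.53 (SE 0.06), and neither passed on rescaled TPM (0.13 and 0.24, limma).

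Of 11 H3K9 demethylase genes, 4 were higher and 6 lower, with a median of -0.27. The number higher was 2 on log2(TPM + 1) and 1 on rescaled TPM (limma). *Phf2* fell from 364 ± 15.6 to 43.4 ± 2.07 CPM (log2 fold change -3.07, SE 0.06), the largest change among the 47 related genes. *Kdm3a*, which removes mono- and dimethylation and is needed late in spermatogenesis, fell from 498 ± 22.5 to 232 ± 8.55 CPM (-1.11, SE 0.05), and its relative *Jmjd1c* fell by 0.75 log2 units (SE 0.05). *Kdm3b*, of the same family, rose by 0.31 on counts (SE 0.07) and did not pass on log2(TPM + 1) (0.21, adjusted p = 0.0647, limma) or on rescaled TPM (0.084, adjusted p = 0.475, limma). The X-linked *Phf8* rose from 19.2 ± 0.566 to 39.2 ± 2.31 CPM (1.03, SE 0.06, or 0.68 on rescaled TPM). In these 5 lists, 7 of 47 genes (14.9%) had a fold change within the range of the spermatid markers, as had 7.08% of all genes tested.

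**Figure D5:**
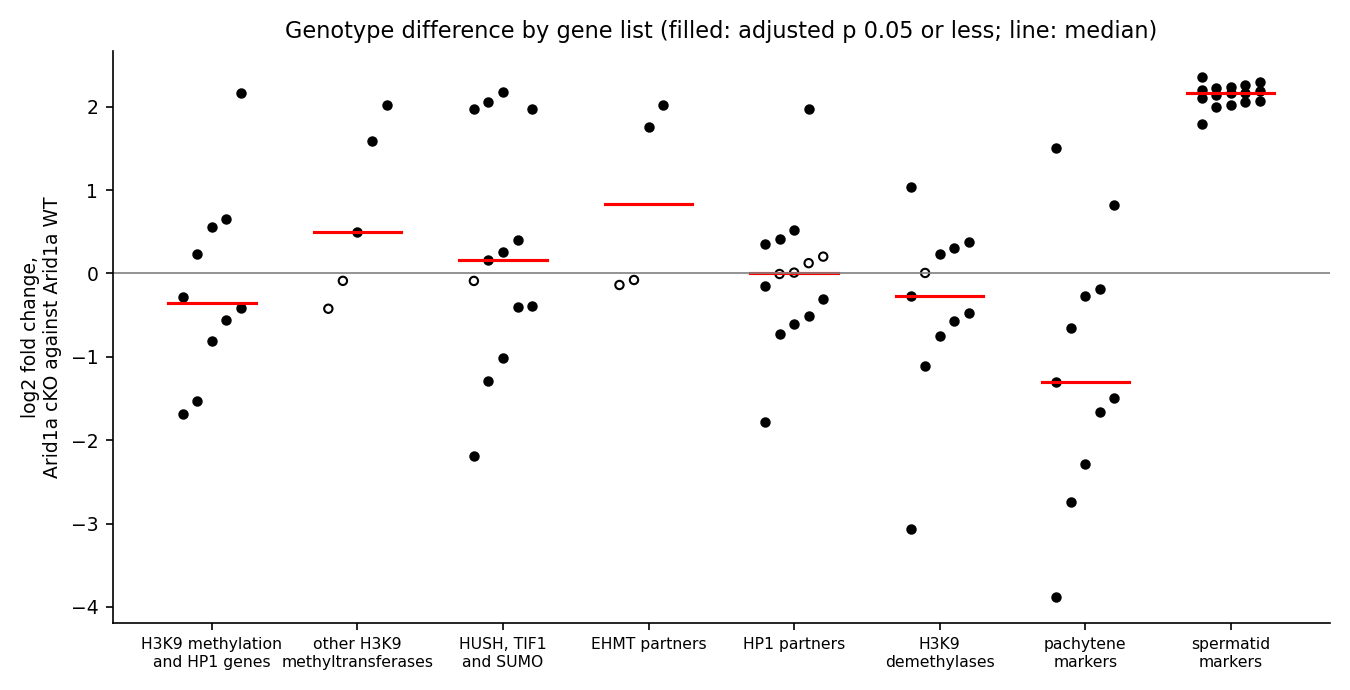
Each point is a gene, placed by list on the horizontal axis and by its log2 fold change on the vertical axis. Filled points passed the test on counts, open points did not, and the red line is the median of the list. The 10 H3K9 methylation and HP1 genes spread from -1.68 to 2.16, while the spermatid markers all lie between 1.79 and 2.36.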

How the data were processed

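The authors quantified 50 bp paired-end mRNA reads with Salmon, and tximport turned transcript values into values per Entrez gene of mm10 (versions not given in the sources used here). They deposited estimated counts, with no scaling for depth or transcript length, and TPM. The table of the authors' own DESeq2 comparison (log2 fold changes, standard errors and p-values) was not used. Gene names and coordinates came from RefSeq GRCm38.p6, which matched 21036 of the 21058 genes. Transcripts came from GENCODE M21.

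The planned test was for whole counts, and the estimates were rounded to meet it. All genes whose counts over the 8 libraries reached 10 in sum entered edgeR 4.0.16 (R 4.3.3; TMM factors, quasi-likelihood test on genotype), and a call needs a p of at most 0.05 after Benjamini-Hochberg adjustment. Standard errors are log2 fold changes over the root of F. Ratios of log2(TPM + 0.01) were compared by exact permutation (two-sided, 70 assignments of libraries). Effective length (count over TPM) was centred on the median gene of each library, or on the genes with a single transcript, and compared with limma 3.58.1, a step chosen after the data were seen. The tests on counts and on length were also run on simulated data with 200 changed genes. They recovered 98% and 100% of these, and 5.77% of the calls on counts were false. Far fewer genes changed there than were called here, so the simulation does not test the calls made here.

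Alternatives were DESeq2 1.42.0, other size factors and filters, a replicate block, length offsets, limma on TPM and each library left out. The genes named were *Arid1a*, the 10 genes, *Suv39h1* and, in each related list, up to 4 called genes without overlap and with the largest change. *Piwil1*, *Pgk2*, *Id4*, *Spo11*, *Prdm2*, *Mecom*, *Tasor*, *Wiz*, *Zfp644*, *Chaf1a*, *Adnp*, *Kdm3b*, *Cers2*, *Gm4349* and *Dclre1c* were named after their values were seen. Members and lists were chosen with earlier results of these data known. The labels call the libraries biological replicates, and whether each was a separate purification is not given, so p-values measure the spread between these samples. Pairs of libraries of a genotype differed by more than counting noise (chi-square per degree of freedom 1.74 to 19.1). Figures were drawn in Python 3.11.15 with matplotlib 3.10.9.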

Additional observations from a re-analysis of the deposited data

Results flagged for a closer look

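*Setdb1* was measured at 129 CPM in *Arid1a* WT replicate 2, where the other 3 *Arid1a* WT libraries were at 121 to 122 CPM. The gap to the nearest library took up 0.869 of the range of the 4 values, above Dixon's critical value for a group of that size. It was the only one of 32 groups of 4 values examined that passed, where chance gives 1.6. Every *Arid1a* cKO library was lower still, at 66.6 to 76.1 CPM.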

How the results depend on the processing

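The 10 genes were called 3 to 4 higher and 5 to 7 lower over the alternatives. *Setdb1*, *Atf7ip2*, *Trim28*, *Ehmt1*, *Suv39h2*, *Cbx1*, *Cbx3* and *Cbx5* kept their direction and passed under all 19. *Atf7ip* no longer passed with length offsets (log2 fold change -0.022) or on log2(TPM + 0.1) and log2(TPM + 1) (-0.13 on both). *Ehmt2* no longer passed on those TPM scales (0.024 on both) and turned to -0.13 on rescaled TPM, an alternative chosen after seeing the data, on which *Setdb2* turned to -0.060. Rescaled TPM moved the median of all genes to -0.13 and the share of called genes that were higher from 49.3% to 38.9%. Library size without TMM moved the median to -0.12. With *Cbx5* and *Atf7ip*, the difference between settings follows from the length correction itself; for the other changes the cause was not tested.

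Other H3K9 methyltransferases called lower went from 0 to 1 without TMM, on each TPM scale and without *Arid1a* WT replicate 3 (0 to 1 with each library left out). EHMT partners called lower went from 0 to 1 without TMM and lay between 0 and 2 when single libraries were dropped, with 2 without *Arid1a* WT replicate 4 and 1 without *Arid1a* cKO replicate 1. HP1 partners called higher went from 4 to 1 on rescaled TPM, with 9 lower in place of 6, and were 4 to 6 with each library left out. H3K9 demethylases called higher went from 4 to 2 on log2(TPM + 0.1) and log2(TPM + 1) and to 1 on rescaled TPM. In CPM in place of TPM, the log2 ratio of *Atf7ip2* to *Atf7ip* turned to 0.13 and that of *Cbx5* to *Cbx1* to -0.14, while that of *Ehmt1* to *Ehmt2* became 0.41 and that of *Cbx5* to *Cbx3* -2.23. Against the median gene of each library, the log2 effective length difference of *Cbx1* was 0.0086 and not called. It turned to -0.014 without *Arid1a* WT replicate 4, in a range of -0.014 to 0.023 over the libraries left out. On the kb scale of single-transcript genes, chosen after seeing the data, the length differences of *Cbx1* (-0.056), *Setdb1* (-0.030), *Atf7ip2* (-0.027), *Trim28* (-0.022) and *Cbx3* (-0.0070) turned negative, none of them called there, which follows from the change of centring.

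Whether same-numbered libraries were prepared together is not given, and these values cannot decide it. Deviations of same-numbered libraries correlated between -0.14 and 0.16, over 0.1 in 1 of 4. Those of different-numbered libraries correlated between -0.20 and 0.19. With the number as a block, 6429 genes were higher and 6671 lower, against 6435 and 6613, and the calls of the 10 genes did not change. The 5 called ratios of the 6 separated the genotypes fully. Leaving out a library could then only return the smallest p (exact permutation test, adjusted p = 0.0343), so it does not test their stability. The ratio of *Atf7ip2* to *Atf7ip* did not pass with any library left out (exact permutation test, adjusted p up to 0.514). *Ehmt1* had the fewest counts of the 10 genes, 1654 over all libraries.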
